A study of Mus musculus with 11 samples.

Results

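The miR-26 family was followed through 11 small RNA libraries from mouse liver. The count table lists 1281 mature miRNA names, and the 5 names with the stem miR-26a or miR-26b, either arm, make up the family: mmu-miR-26a-5p, mmu-miR-26b-5p, mmu-miR-26b-3p, mmu-miR-26a-2-3p and mmu-miR-26a-1-3p, written below without the species prefix. All libraries came from untreated mice of the C57/B6 background that lack telomerase and have short telomeres, named G4 in the labels. Of these, 5 libraries (numbered 1 to 5) carry the genotype G4 p53+/+, with p53 present, and 6 (numbered 6, 7, 8, 10, 11 and 12) carry G4 p53-/-, without p53. Both groups thus lack telomerase, and no library from animals with normal telomeres enters the comparison. The labels used here give no age or sex. They do not say whether every library stands for its own mouse, so the p-values reflect the spread among these samples, which may be technical.

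MicroRNAs (miRNAs) are short RNAs that guide repression of messenger RNAs, mainly by pairing of the seed, bases 2 to 8 from the 5′ end. A hairpin precursor holds a 5p and a 3p arm, of which 1 is usually kept and the other degraded. The miR-26 family is expressed in many tissues and is abundant in liver, where it is known as a brake on the cell cycle through cyclins, as a repressor of the histone methyltransferase EZH2, and as a regulator of glucose and lipid metabolism. Its level is reported to be low in liver cancer, and MYC is reported to repress it. miR-26a has also been reported to repress sirtuins, the deacetylases named in the title of the series.

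The mature sequences show what the family shares and where the reads of its members can be told apart. They were taken from RefSeq (GRCm38.p6), where all 5 names matched, and the capitals mark the seed.
miR-26a-5p: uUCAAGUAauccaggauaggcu
miR-26b-5p: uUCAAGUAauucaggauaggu
miR-26b-3p: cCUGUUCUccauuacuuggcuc
miR-26a-2-3p: cCUGUUCUugauuacuuguuuc
miR-26a-1-3p: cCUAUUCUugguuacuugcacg

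Both 5p arms carry the seed UCAAGUA, which no other of the 1679 mature mouse names in that table has. Counting from 1 at the 5′ end, miR-26b-5p differs from miR-26a-5p at 2 of the 21 positions they share, C11U and C21U, and it is 1 base shorter (21 against 22). The 3p arms fall into 2 seed groups. miR-26b-3p and miR-26a-2-3p share the seed CUGUUCU, and differ from each other at 4 positions (U9C, G10C, U19G and U20C, with the base of miR-26a-2-3p first). Of the mature mouse names, 2 outside the family, miR-7039-3p and miR-6932-3p, also have the seed CUGUUCU, but the count table lists neither. miR-26a-1-3p has the seed CUAUUCU, which no other name has and which sets it apart from miR-26a-2-3p by G4A within the seed and at 5 further positions.

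The 3 hairpins are shown to place the arms, whose bases are in capitals.
Mir26a-1: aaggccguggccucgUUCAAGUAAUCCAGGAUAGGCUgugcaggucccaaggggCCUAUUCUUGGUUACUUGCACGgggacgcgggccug
Mir26a-2: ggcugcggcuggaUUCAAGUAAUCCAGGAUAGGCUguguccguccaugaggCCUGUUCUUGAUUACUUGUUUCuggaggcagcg
Mir26b: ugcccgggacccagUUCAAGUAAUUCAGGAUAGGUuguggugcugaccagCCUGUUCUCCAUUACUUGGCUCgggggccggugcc

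Each hairpin lies on the plus strand inside a gene of the same strand that encodes a small C-terminal domain phosphatase, an enzyme group that acts on RNA polymerase II and, for some members, on the retinoblastoma protein. On GRCm38, Mir26a-1 is at chr9:119031796-119031885, in intron 5 of the principal Ctdspl transcript of GENCODE M21. Mir26a-2 is at chr10:126995530-126995613, in intron 5 of the principal Ctdsp2 transcript, and it also overlaps exon 1 of 2 shorter Ctdsp2 transcripts. Mir26b is at chr1:74394310-74394394, in intron 4 of the principal Ctdsp1 transcript. Messenger RNA of the host genes is not part of these libraries. The 5p arm of miR-26a is identical in both hairpins, so its reads cannot be assigned to Mir26a-1 or Mir26a-2. The deposited table lists it under each hairpin with counts that differ by at most 10 reads, or 0.014%, and it was counted once here.

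Library totals, taking every miRNA name a single time, were 1905609 to 6682492 counts, and p53+/+ libraries 1 and 2 and p53-/- library 11 were the shallowest, at 1965468, 1905609 and 2202415. Libraries 1 and 2 also stood apart from the other 9 on the first principal component of all tested miRNAs (26.9% of the variance), at -10.5 and -13.0 against -0.77 to 5.97. The hepatocyte miRNA miR-122-5p made up 52.4 to 64.0% of counts in every library, which fits the liver label. miR-34a-5p, a known p53 target, was at 42.4 to 120.0 normalised CPM (counts scaled to a fixed library total, then between libraries by the trimmed mean of M-values, TMM) in p53+/+ and 3.90 to 12.4 in p53-/- libraries. p53-/- library 6 stood apart on the second component (16.9% of the variance), at 14.4 against -4.34 to 0.645. Of 31 markers fixed for 8 other cell types, 27 could be tested, none of them differed between genotypes past the threshold in edgeR, and the neuronal miR-124-3p had no read in any library. In DESeq2 the leukocyte marker miR-150-5p did pass, higher in p53-/- libraries (adjusted p = 0.0449). DESeq2 results are not given here for every marker. The 3 neuronal markers summed to 698 normalised CPM in library 6 and to at most 225 elsewhere, and in library 6 miR-128-3p gave 696 of it. Results that rest on libraries 1 and 2 or on library 6 are given with and without them.

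miR-26a-5p, the dominant member, was among the most abundant miRNAs of these livers, with an abundance rank between 5 and 13 in each library. Its levels in p53+/+ libraries 1 to 5 were 23051, 21989, 14288, 16159 and 13870 normalised CPM. In p53-/- libraries 6, 7, 8, 10, 11 and 12 they were 16111, 13377, 14055, 14732, 9677 and 11727 normalised CPM. Libraries 1 and 2 were the highest of all, library 11 was the lowest, and p53+/+ libraries 3, 4 and 5 lay within or just above the p53-/- range. On average p53+/+ livers had 17871 ± 4347 normalised CPM (SD, n = 5) and p53-/- livers 13280 ± 2286 (SD, n = 6), with all 6 p53-/- libraries under the p53+/+ median. On the log2 scale the difference, p53-/- minus p53+/+, was -0.43 (SE 0.18, 95% interval from -0.82 to -0.04). It did not pass the test in edgeR (adjusted p = 0.225).

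**Figure D1:**
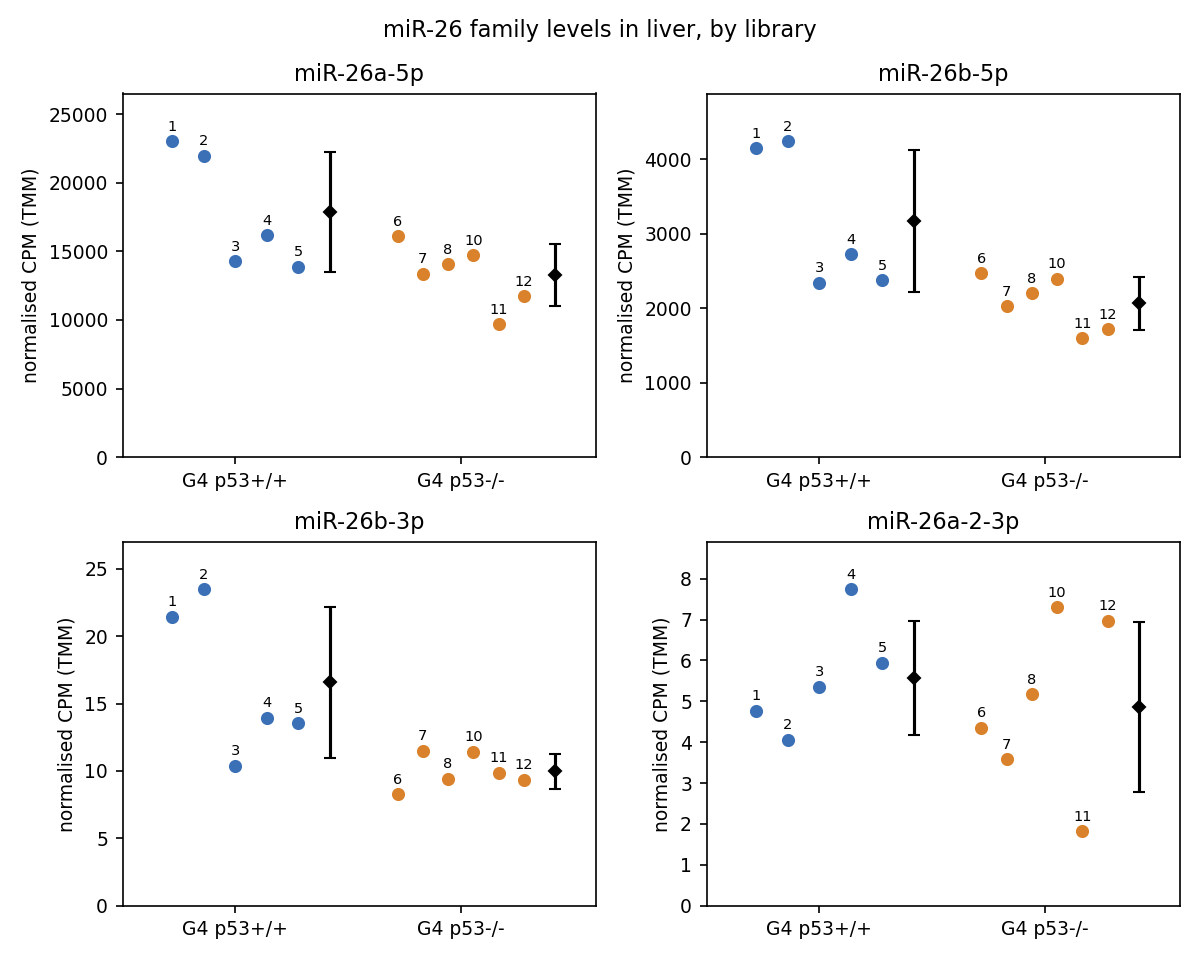
Normalised CPM (y axis, linear, from 0) of the 4 tested miR-26 members in each of 5 G4 p53+/+ (blue) and 6 G4 p53-/- (orange) liver libraries, numbered as in the text; diamonds and bars are the mean and SD. p53+/+ libraries 1 and 2 are above all other libraries for miR-26a-5p, miR-26b-5p and miR-26b-3p, but not for miR-26a-2-3p.

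miR-26b-5p, which shares the seed of miR-26a-5p, was the second member by level and ranked between 27 and 40 among the miRNAs of a library. Its levels in p53+/+ libraries 1 to 5 were 4145, 4243, 2342, 2725 and 2372 normalised CPM. In the p53-/- libraries, in the order above, they were 2468, 2029, 2199, 2397, 1596 and 1713 normalised CPM. Again libraries 1 and 2 were far above the rest, and the other p53+/+ libraries overlapped with p53-/- libraries 6 and 10. The average was 3165 ± 952 normalised CPM (SD, n = 5) with p53 and 2067 ± 357 (SD, n = 6) without it. The log2 difference of -0.61 (SE 0.20, 95% interval from -1.05 to -0.18) did not pass either (adjusted p = 0.174 in edgeR), although every p53-/- library was under the p53+/+ median.

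The 3p arms were rare, and the one from Mir26b followed its 5p arm. miR-26b-3p was at 21.5, 23.5, 10.4, 14.0 and 13.6 normalised CPM in p53+/+ libraries 1 to 5, from 45, 52, 62, 83 and 57 reads. In p53-/- livers it was at 8.25, 11.5, 9.43, 11.4, 9.86 and 9.35 normalised CPM, from 36, 77, 51, 61, 27 and 67 reads. Only p53+/+ library 3 lay inside the p53-/- range. On the log2 scale the genotypes differed by -0.71 (SE 0.24, 95% interval from -1.22 to -0.20), which did not pass in edgeR (adjusted p = 0.174).

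miR-26a-2-3p, the 3p arm of Mir26a-2, was rarer still and was not highest in libraries 1 and 2. Its levels in p53+/+ libraries 1 to 5 were 4.77, 4.06, 5.36, 7.74 and 5.95 normalised CPM, from 10, 9, 32, 46 and 25 reads. In p53-/- libraries they were 4.36, 3.59, 5.18, 7.31, 1.83 and 6.97 normalised CPM, from 19, 24, 28, 39, 5 and 50 reads. Libraries 1 and 2 were the lowest of the p53+/+ group here, and the ranges overlapped almost throughout. The log2 difference was -0.19 (SE 0.32, 95% interval from -0.89 to 0.50), with adjusted p = 0.792 in edgeR. That interval also holds the log2 differences of the other tested members. Without p53-/- library 11, which had 5 reads, it was -0.03, so a difference in this arm was not detectable at this depth.

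miR-26a-1-3p, the 3p arm of Mir26a-1, was nearly absent. It had 1 read in p53+/+ library 5, 2 in p53-/- library 10, 1 in p53-/- library 11 and 0 in each of the other libraries, where a count of 0 allows up to 3 counts, or 0.449 to 1.57 CPM depending on the library. It did not pass the filter on low counts and was not tested. Of the 291 reads of 3p arms of miR-26a, 287 or 98.6% (95% Wilson interval 96.5 to 99.5%) came from Mir26a-2 by their sequence. The share was 99.2% (95.5 to 99.9%) in p53+/+ and 98.2% (94.9 to 99.4%) in p53-/- livers. These intervals and limits hold for counting error alone, because no use of molecular identifiers is known for these reads.

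In all, 0 of the 4 tested members passed the threshold in edgeR, where 0.258% of the 388 tested miRNAs did (miR-34a-5p alone). All 4 members had a log2 fold change below 0, as did 51.0% of all tested miRNAs. Before adjustment, 3 members were under 0.05 in edgeR's quasi-likelihood test, all below 0 (miR-26a-5p at 0.0331, miR-26b-5p at 0.00871 and miR-26b-3p at 0.00957), beside 9.02% of all tested miRNAs on that side. DESeq2 called 0 of the 3 members to which it gave an adjusted p (miR-26b-5p at 0.0661, miR-26b-3p at 0.0671 and miR-26a-5p at 0.151), where it called 3.60% of its 250 miRNAs as lower. limma-voom called 0 of the 4 members and 0.258% of all miRNAs.

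The size of the difference rested on p53+/+ libraries 1 and 2. Their mean level was 1.63 times the mean of the other 9 libraries for miR-26a-5p, 1.90 times for miR-26b-5p and 2.07 times for miR-26b-3p, but 0.823 times for miR-26a-2-3p. Both libraries exceeded all 9 others for the first 3 members, a pattern that 10.1% of the 388 tested miRNAs showed, while for 8.25% both were below all others. Without libraries 1 and 2 the log2 fold change was -0.10 (SE 0.17, adjusted p = 0.832 in edgeR) for miR-26a-5p. It was -0.21 (SE 0.18, adjusted p = 0.669 in edgeR) for miR-26b-5p and -0.29 (SE 0.21, adjusted p = 0.578 in edgeR) for miR-26b-3p. miR-26a-2-3p moved the other way, to -0.32 (SE 0.36, adjusted p = 0.765 in edgeR). Then 0 of the 4 members had an unadjusted p under 0.05 in edgeR, DESeq2 or limma-voom. In edgeR 12.4% of the 388 miRNAs were under 0.05 before adjustment without this pair, so 0 of 4 is little apart from that share. After adjustment 0 of the 4 members and 0.248% of 403 tested miRNAs were called in edgeR. miR-34a-5p was at -3.33 with all libraries and at -3.50 without the pair.

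**Figure D2:**
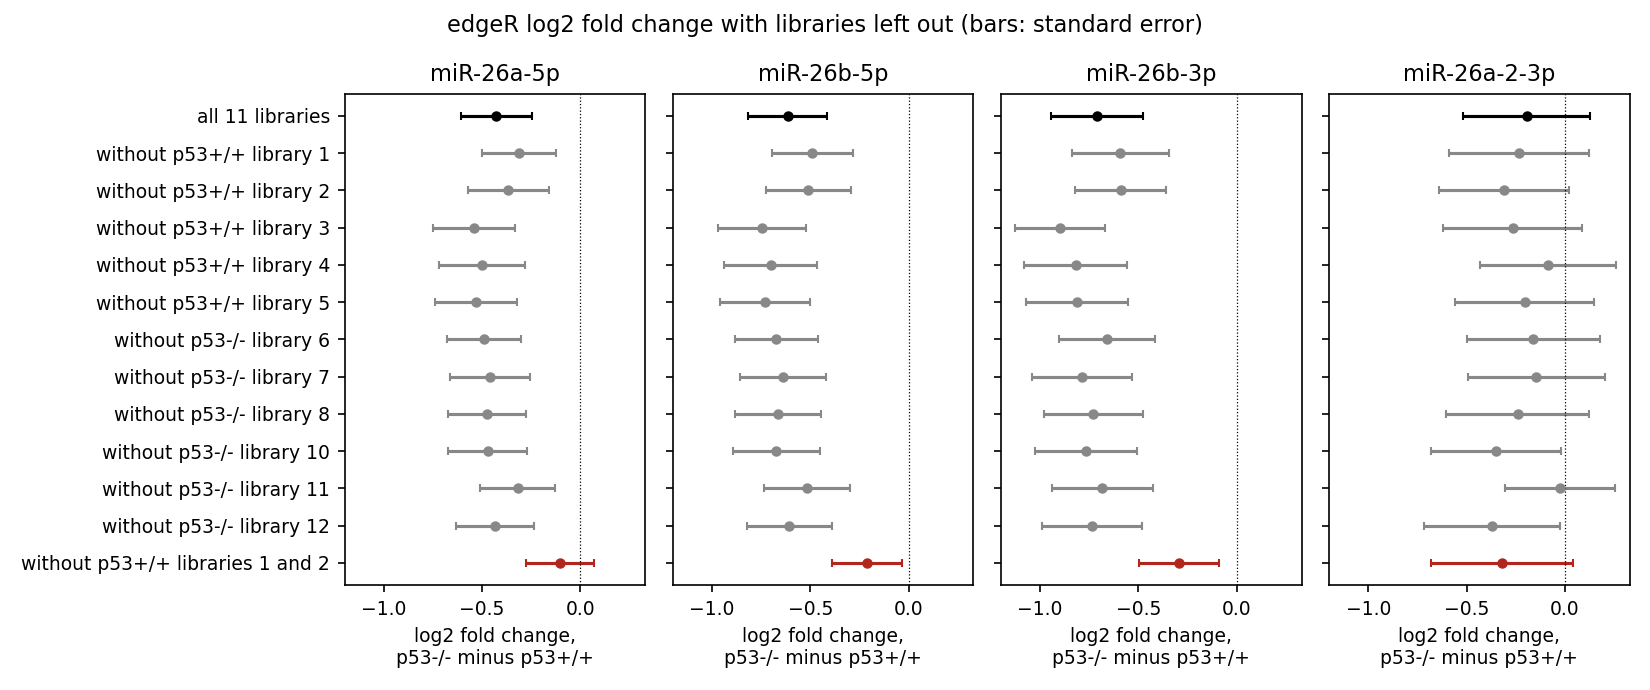
Log2 fold change, p53-/- minus p53+/+, from edgeR (x axis; dots, with bars for the standard error) for 4 miR-26 members with all 11 libraries (black), without each library in turn (grey) and without p53+/+ libraries 1 and 2 together (red). For miR-26a-5p the value moves from -0.43 to -0.10 when the pair is left out, while no single library brings it above -0.31.

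Depth and cell type markers in libraries 1 and 2 were as follows. Library 11, nearly as shallow, had the lowest normalised CPM of miR-26a-5p and of miR-26b-5p. In the authors' deposited CPM, without TMM, it was lowest for miR-26a-5p (11104, against 11626 in library 12). For miR-26b-5p it was not (1832, against 1698 in library 12). The 2 endothelial markers, both arms of miR-126, summed to 6012 normalised CPM in library 1, the lowest of p53+/+, and to 11013 in library 2, the highest, within ranges of 6012 to 11013 for p53+/+ and 5772 to 10477 for p53-/- libraries. The less abundant arm, miR-126-5p, was above all others in both libraries, at 241 and 344 normalised CPM against at most 225. The 5 epithelial and biliary markers summed to 810 and 1166, within 810 to 2745 in p53+/+ and 661 to 2223 in p53-/- libraries, but one of them, miR-141-3p, singled out after its values were seen, was at 8.58 or more in both against at most 4.37 elsewhere. These were the 2 of the 27 tested markers of other cell types for which both libraries exceeded all others, as they did for 10.1% of the 388 tested miRNAs. The 5 mesenchymal and stellate markers summed to 5123 and 4840 in libraries 1 and 2, below every other library. The lowest of the others were 5438 in p53+/+ library 5 and 5603 among p53-/- libraries, and the highest were 8815 and 6627. Of these 5 markers, only miR-199a-5p was itself below all others in both, at 364 and 310 normalised CPM against at least 377. That pattern held for 8.25% of the 388 tested miRNAs. The 5 leukocyte markers summed to 110 and 158, within 103 to 161 in p53+/+ and 142 to 216 in p53-/- libraries, and the 7 hepatocyte markers to 584467 and 510058, within 510058 to 711074 and 491335 to 848457. The 4 erythroid markers summed to 528 and 643, within 528 to 1399 and 591 to 1336. The sums of libraries 1 and 2 for striated muscle (4.29 and 12.6), pancreas (2.86 and 88.0) and neuronal markers (165 and 179) lay below the highest of the other p53+/+ libraries (45.6, 410 and 225). The part of depth and cell makeup in the levels of these libraries was not tested. In bulk liver, fewer cells of a type and less RNA per cell cannot be told apart.

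The scaling between libraries also shaped the spread. In the authors' deposited table of CPM, without TMM, miR-26a-5p lay between 11104 and 12371 in p53-/- libraries, a coefficient of variation of 4.08%, against 17.2% in normalised CPM. Among p53+/+ libraries the order was reversed, with 31.3% in the authors' CPM against 24.3% in normalised CPM. For miR-26b-5p the authors' deposited values ran from 1698 to 1974 in p53-/- and from 2063 to 4423 in p53+/+ libraries, so that the groups did not overlap, as for 1.29% of the 388 miRNAs lower in p53-/- on that scale. On the normalised scale they did overlap, while 1.03% of the 388 did not. miR-26a-5p overlapped on both scales, since p53+/+ library 5 was at 12062 CPM in the authors' deposited table. Tested on total-count scaling, miR-26a-5p was at -0.53 and miR-26b-5p at -0.72, and neither passed (adjusted p = 0.225 for both in edgeR).

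Ratios between members within a library do not depend on that scaling. The count of miR-26a-5p was 5.56, 5.18, 6.10, 5.93 and 5.85 times that of miR-26b-5p in p53+/+ libraries 1 to 5. In p53-/- libraries 6, 7, 8, 10, 11 and 12 it was 6.53, 6.59, 6.39, 6.15, 6.06 and 6.85 times. miR-26b-5p thus made up less of the pair without p53: each p53-/- library lay above the p53+/+ median, and only library 11, at 6.06, was under the highest p53+/+ value, 6.10 in library 3. The difference in mean log2 ratio was 0.168, a 1.12-fold higher ratio in p53-/- livers, with SDs of 0.093 (n = 5) and 0.066 (n = 6). In a two-sided exact permutation test over all ways to split the libraries it had p = 0.00649, or 0.0195 adjusted over the 3 ratios tested.

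As a share of the reads of both 5p arms, miR-26b-5p ran from 14.1% (95% Wilson interval 13.9 to 14.3%) in library 3 to 16.2% (15.9 to 16.5%) in library 2 among p53+/+ livers. Among p53-/- livers it ran from 12.7% (12.5 to 13.0%) in library 12 to 14.2% (13.8 to 14.6%) in library 11. Where the groups meet, the counting intervals overlapped: those of p53-/- libraries 10 (14.0%, 13.8 to 14.2%) and 11 overlapped that of p53+/+ library 3, and that of library 11 also those of p53+/+ libraries 4 (14.4%, 14.2 to 14.6%) and 5 (14.6%, 14.3 to 14.9%). The 2 libraries with the lowest ratios were again p53+/+ libraries 1 and 2. Without them the difference was 0.108, in the same direction, and it no longer passed (exact permutation p = 0.0595 over 84 splits, adjusted p = 0.179, where the smallest possible p is 0.0119). The sample descriptions give each library an HA number without a meaning. With only the 3 p53-/- libraries whose HA number exceeds 500 (10, 11 and 12) the difference was 0.150 (exact permutation p = 0.0714, adjusted p = 0.214). For these same 3 libraries the ES number in the title differs from that in the description, so their HA numbers are less sure.

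**Figure D3:**
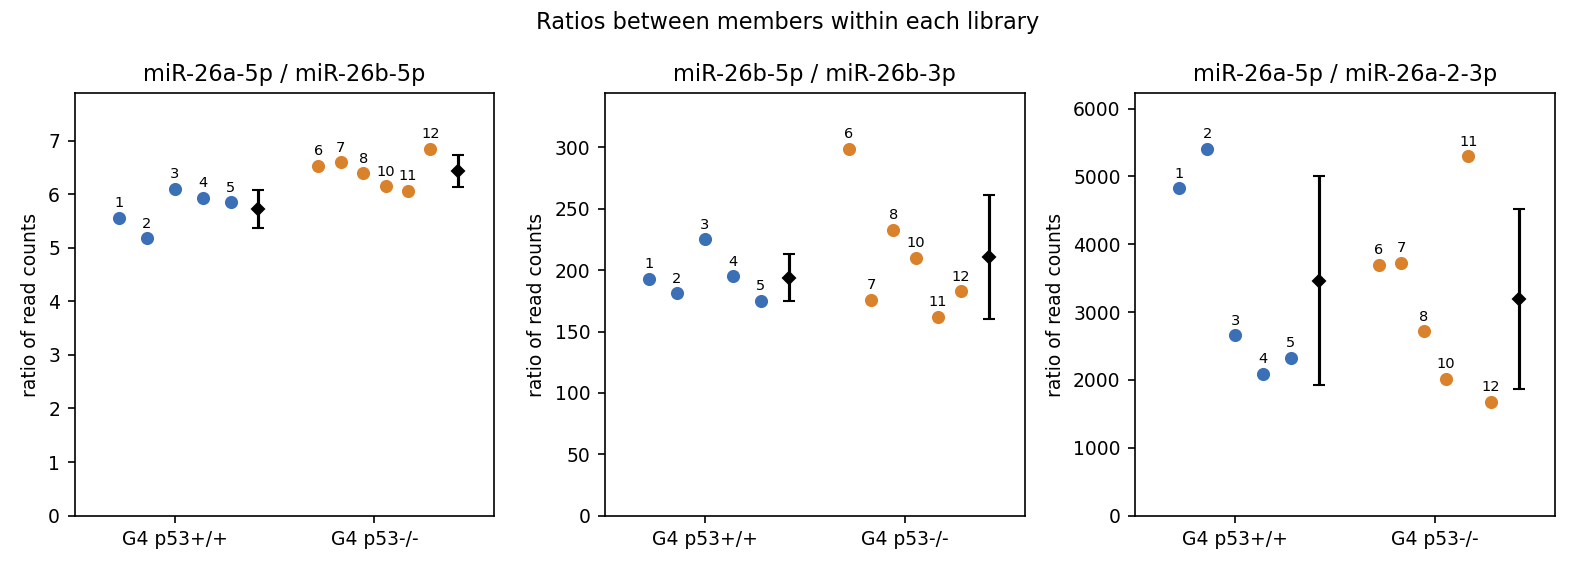
Ratio of read counts (y axis, linear, from 0) between miR-26 members within each of 5 G4 p53+/+ (blue) and 6 G4 p53-/- (orange) libraries, numbered as in the text; diamonds and bars are the mean and SD. The ratio of miR-26a-5p to miR-26b-5p lies between 5.18 and 6.10 in p53+/+ and between 6.06 and 6.85 in p53-/- libraries, while the ratios of 5p to 3p arms overlap widely.

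The balance of arms within a hairpin did not differ detectably between genotypes. miR-26b-5p exceeded miR-26b-3p by 193 and 181 times in p53+/+ libraries 1 and 2 and by 175 to 225 times in libraries 3, 4 and 5. In p53-/- libraries the ratios were 299, 176, 233, 210, 162 and 183, with library 6 the highest of all. The difference in mean log2 ratio was 0.090, with SDs of 0.142 (n = 5) and 0.323 (n = 6) and an exact permutation p of 0.615 (adjusted p = 0.745). Without library 6 its sign turned, to -0.016 (exact permutation p = 0.881). Libraries 1 and 2, where both arms were high, had ratios inside the range of the others.

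For miR-26a the 5p arm, which sums both hairpins, exceeded miR-26a-2-3p by 2090 to 5410 times in p53+/+ and by 1680 to 5300 times in p53-/- libraries. The difference in mean log2 ratio was -0.117, with SDs of 0.601 (n = 5) and 0.582 (n = 6) and an exact permutation p of 0.745 (adjusted p = 0.745). The 3 highest ratios were those of the 3 shallowest libraries, 1, 2 and 11, in which the 3p arm had 10, 9 and 5 reads, and without libraries 1 and 2 the sign turned, to 0.311 (exact permutation p = 0.405). Over all libraries, the 5p arm made up 99.5% of the reads of Mir26b. Among 132 stems with both arms listed and at least 1000 reads, the more abundant arm had a median share of 98.5%, and 44 stems were more one-sided than miR-26b.

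As a share of all miRNA reads, the 5 members together made up 2.90, 3.05, 1.71, 1.74 and 1.54% in p53+/+ libraries 1 to 5. In p53-/- libraries they made up 1.55, 1.55, 1.48, 1.53, 1.40 and 1.44%. The family averaged 2.19 ± 0.727% (SD, n = 5) with p53 against 1.49 ± 0.0597% (SD, n = 6) without it, and p53+/+ library 5 fell inside the p53-/- range. Libraries 1 and 2 raised the p53+/+ mean. Without them the p53+/+ libraries ran from 1.54 to 1.74%, against 1.40 to 1.55% in p53-/- libraries. miR-26a-5p held between 83.7 and 87.2% of the family's reads in each library.

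Of all miRNAs with a mean of at least 100 normalised CPM, miR-26b-5p had the profile most like that of miR-26a-5p. Likeness was measured as the SD, over the 11 libraries, of the log2 ratio of the normalised CPM of 2 miRNAs, so that a small value means a steady ratio. It was 0.115 for miR-26b-5p, the smallest among the 125 miRNAs at that level, and the median was 0.511. The next were miR-29a-3p, which represses collagens (0.179), miR-126-5p, of endothelial cells (0.187), miR-98-5p, of the let-7 family (0.206), and miR-30c-5p, abundant in liver and kidney (0.216). Seen from miR-26b-5p the nearest were miR-26a-5p (0.115), miR-29a-3p (0.144) and miR-126-5p (0.227).

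These neighbours lie in other loci, and their order among all miRNAs at that level depended on libraries 1 and 2. In both libraries miR-29a-3p, miR-126-5p and miR-30c-5p exceeded all 9 others, as the 5p arms of miR-26 did, but miR-98-5p did not. With libraries 1 and 2 left out, miR-26b-5p was still the nearest to miR-26a-5p, at 0.0766. The SDs of the others did not rise, but their order fell. miR-29a-3p was 10th, at 0.144, miR-126-5p 11th, at 0.150, miR-98-5p 9th, at 0.141, and miR-30c-5p 19th, at 0.216. From miR-26b-5p, miR-29a-3p was second with and without them. The log2 fold changes between genotypes were -0.58 for miR-29a-3p, -0.40 for miR-126-5p, -0.37 for miR-98-5p and -0.51 for miR-30c-5p, and none passed in edgeR (adjusted p from 0.174 to 0.304).

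**Figure D4:**
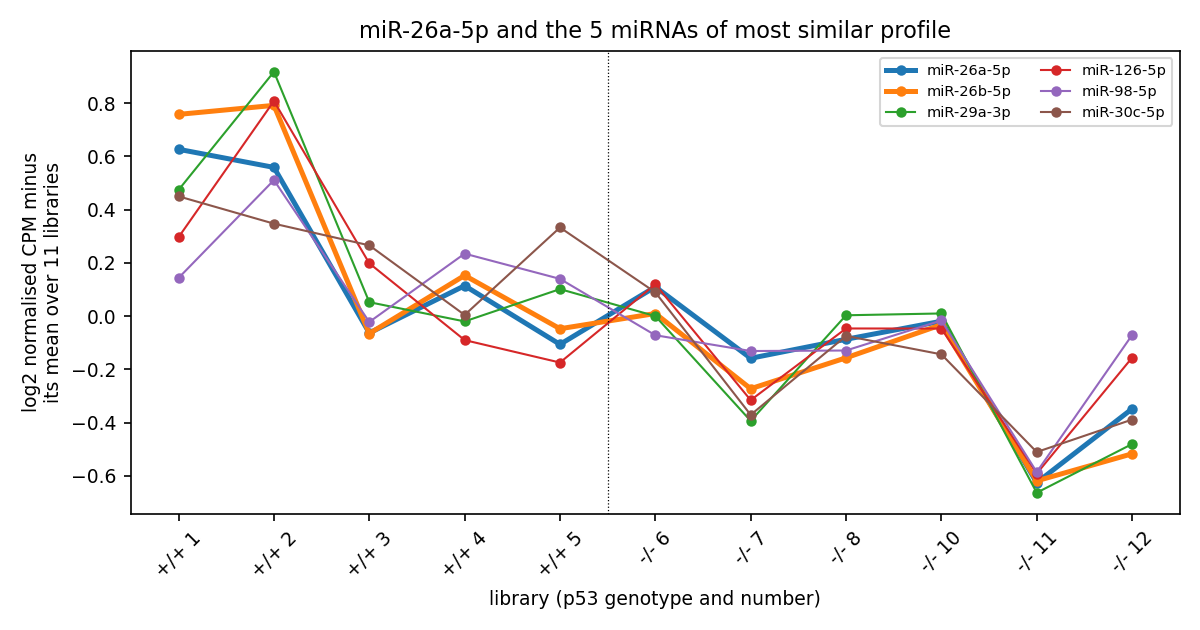
Log2 normalised CPM minus its own mean over the 11 libraries (y axis) by library (x axis, p53 genotype and number) for miR-26a-5p, miR-26b-5p (thick lines) and the 4 other miRNAs nearest to miR-26a-5p. The lines are highest in p53+/+ libraries 1 and 2, except that miR-98-5p is higher in library 4 than in library 1, and lowest in p53-/- library 11; the 2 miR-26 lines keep the steadiest ratio, with an SD of 0.115.

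Lists of miRNAs that share a regulator or target with miR-26 put these values in context. MYC, a growth-promoting transcription factor, is reported to repress 16 miRNA stems of which miR-26a and miR-26b are 2. The stem entered as miR-497a is named miR-497 in these data and did not match. The counts below therefore leave out its tested arm miR-497-5p. The other stems had 34 listed arms, of which 28 were tested. Of these, 21 had a log2 fold change below 0 (75.0%, against 51.0% of all tested miRNAs), and the median was -0.33 (-0.01 over all). In edgeR 13 of 28 were under 0.05 before adjustment (46.4%, against 17.3% of all tested miRNAs). After adjustment in edgeR 1 arm fell, miR-34a-5p (adjusted p = 7.07e-05), and 0 rose. The arms with the next smallest p were miR-30c-5p (-0.51) and miR-30e-5p (-0.76), both with an adjusted p of 0.174 in edgeR. DESeq2 called these lower as well (adjusted p = 0.0323 and 0.0335), and miR-150-5p higher (adjusted p = 0.0449). Among all its 250 miRNAs DESeq2 called 9 lower and 8 higher. Without the miR-26 arms, 17 of 24 were below 0, with a median of -0.20. Libraries 1 and 2 were both above all others for 9 of the 28 arms, or 32.1%, against 10.1% of all tested miRNAs, and for 6 of the 24 arms outside the miR-26 family. Without these libraries 19 of 28 were below 0 (67.9%, against 44.1% of all), with a median of -0.15 (0.05 over all). Only 3 of 28 were then under 0.05 before adjustment in edgeR (10.7%, against 12.4% of all).

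**Figure D5:**
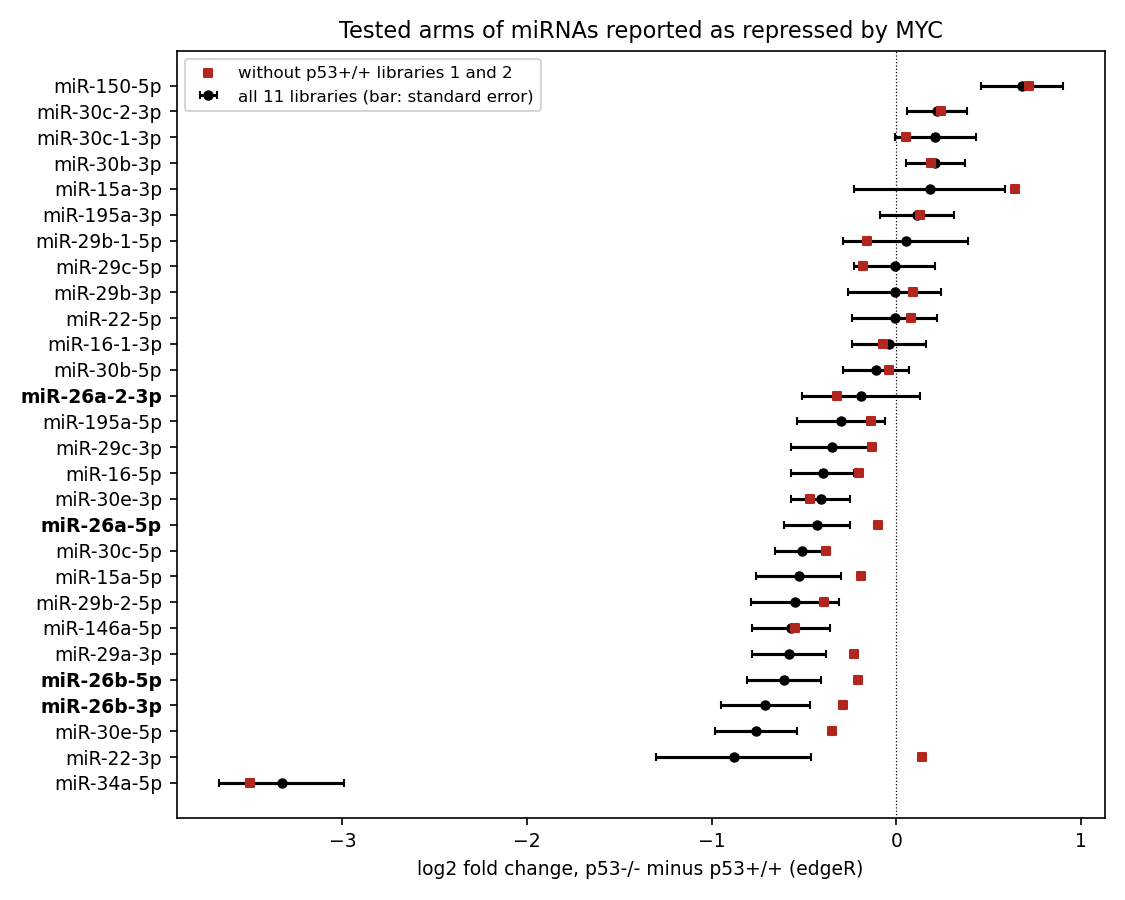
Log2 fold change, p53-/- minus p53+/+, from edgeR (x axis) for the 28 tested arms of miRNAs reported as repressed by MYC, with all 11 libraries (black, bars for the standard error) and without p53+/+ libraries 1 and 2 (red squares); miR-26 arms are in bold. Of the black points 21 lie below 0, and leaving out the pair moves miR-26a-5p, miR-26b-5p and miR-26b-3p towards 0 but not miR-34a-5p.

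The list of miRNAs reported to target EZH2 held 8 stems with 18 listed arms, of which 10 were tested. In edgeR 0 passed in either direction, and 4 of 10 were under 0.05 before adjustment (40.0%, against 17.3% of all tested miRNAs): miR-98-5p and 3 miR-26 arms. In total 7 of 10 were below 0 (70.0%, against 51.0% of all), with a median of -0.12 (-0.01 over all). Without libraries 1 and 2, 0 of 10 were under 0.05 before adjustment in edgeR (12.4% of all were), and 6 of 10 were below 0 (44.1% of all), with a median of -0.16. Its 3 smallest p-values were those of miR-26b-5p, miR-26b-3p and miR-26a-5p, and outside the miR-26 family 3 of 6 were below 0, with a median of 0.08. In the set recalled as central to the study, of miR-34a, miR-26a and miR-145a, all 5 tested arms were below 0, with a median of -0.40. miR-34a-5p fell and the other 4 did not pass in edgeR. Without libraries 1 and 2 the median was -0.35, while miR-26a-5p itself was at -0.10 and miR-145a-5p, a miRNA of smooth muscle and stellate cells, at -0.35 as before. Since that set comes from what is known of the study, its direction is not independent evidence.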

How the data were processed

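For each of 11 liver libraries the authors deposited the read count of every mature miRNA in every hairpin. The submitters' processing notes name GRCm38 and limma. For aligner, counter and trimming the labels give nothing. The values of the authors' deposited CPM table equal the counts scaled to 1 fixed column total (largest difference 0.005), repeats of a name included. The 1418 entries were reduced to 1281 names by taking the highest count over hairpins. Counts equalled those in the single-library files (0 differing values).

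Genotypes were compared with edgeR 4.0.16 (R 4.3.3): TMM scaling, filterByExpr by genotype and the quasi-likelihood F-test (the filter kept 388 miRNAs with 99.98% of counts, Benjamini-Hochberg adjustment over all 388, threshold 0.05). Standard errors were derived from the F statistic. Alternatives were DESeq2 1.42.0, limma 3.58.1 (voom, or log2 of the authors' CPM plus 1), 4 other scalings, no filter, mean over hairpin entries, and libraries left out. Ratios used counts plus 0.5 on the log2 scale and an exact permutation test. Scripts were tested on simulated data. The named miRNAs were the family, miR-34a-5p and miR-122-5p as checks, the 5 and 3 nearest profiles to miR-26a-5p and miR-26b-5p, and, for each of the 3 lists, arms past the threshold and up to 3 with the smallest p. Members and lists were chosen with earlier results of these data known. Libraries of a genotype were used as separate samples.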

Additional observations from a re-analysis of the deposited data

How the results depend on the processing

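Over the 24 alternatives to the edgeR fit, the 4 tested members kept a log2 fold change below 0 and 0 passed the threshold. With a library left out, values ran from -0.540 to -0.312 for miR-26a-5p, -0.747 to -0.490 for miR-26b-5p, -0.899 to -0.590 for miR-26b-3p and -0.371 to -0.026 for miR-26a-2-3p. Across tools, scalings, filters and hairpin entries they ran from -0.527 to -0.384, -0.718 to -0.573, -0.784 to -0.583 and -0.270 to -0.135. The number of miRNAs called was 0 higher and 1 lower in edgeR, also with each library left out, but 8 higher and 9 lower in DESeq2, and 4 lower in DESeq2 without p53+/+ libraries 1 and 2, an alternative chosen after seeing the data. The ratio of miR-26a-5p to miR-26b-5p ran from 0.133 to 0.192 with a library left out and passed each time (exact permutation, adjusted p from 0.0143 to 0.0476). It was 0.108 without p53+/+ libraries 1 and 2 and 0.150 with only p53-/- libraries of HA numbers above 500, where it did not pass and fewer libraries were compared. Neither ratio of arms passed, and their sign was not stable: the miR-26b ratio ran from -0.016 to 0.162 with a library left out and was -0.074 with only those HA numbers, and the miR-26a ratio ran from -0.266 to 0.063 and was 0.311 without libraries 1 and 2. The cause was not tested. No value was computed for miR-26a-1-3p, with 4 reads in all. Depth limits both 3p arms of miR-26a most. No paired analysis was possible because replicate numbers run across both genotypes, so that no number is shared.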
